A study of Mus musculus with 14 samples.

Results

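Acot1, Acot2, Acot7, Cpt1a, Angptl4, Acadl, Acadm, Ucp2 and Ucp3 are 9 genes of acyl-CoA hydrolysis and of fatty acid uptake and oxidation, and their levels were followed in the mouse mammary gland after estradiol (E2), estrogen receptor blockers and their combinations. Acot1 was chosen by its measured difference between the E2 and the vehicle arrays of this series, where its level was higher with E2, and the others for their role in the same metabolism. Each gene was read from the probe sets that carry its symbol alone, with the probe set of highest mean level over all arrays as the main one. This gave 14 probe sets for 8 of the 9 genes, out of 34945 probe sets for 18193 genes in the whole series. Ucp2 has no such probe set and was not analysed here.

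The 14 Affymetrix arrays came from female C57BL/6 mice, 11 to 12 weeks old on arrival, all ovariectomised 7 days before a treatment that lasted 3 h. The groups were E2+acolbifene and acolbifene alone with 2 arrays each, E2+fulvestrant, fulvestrant, E2+raloxifene, raloxifene, E2+tamoxifen and tamoxifen with 1 array each, and E2 alone and vehicle with 2 arrays each. Each group had 8 mice, whose glands were pooled before the RNA was extracted. Nothing in the labels tells if paired arrays stem from separate pools or from 1, so the error between them may be technical, and p-values measure the spread between these arrays only. The labels and files give no blocker doses, so the blockers' values stand side by side without a dose-matched comparison.

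Acyl-CoA thioesterases split fatty acyl-CoA into free fatty acid and coenzyme A. Acot1 works in the cytosol and Acot2 in mitochondria, and both are close relatives that are induced through PPARα in fasted mouse liver. In oxidation proper, Cpt1a loads long-chain acyl groups onto carnitine for transport into mitochondria, and the acyl-CoA dehydrogenases Acadl and Acadm carry out the first step of each cycle. E2 acts through estrogen receptors; fulvestrant is a pure antagonist that also leads to loss of the receptor protein, whereas tamoxifen, raloxifene and acolbifene are selective receptor modulators. The adult mammary gland is rich in fat, so that a whole-gland level of these genes comes from adipocytes, muscle attached to the gland and epithelium together, and fewer cells of a type cannot be told apart from less RNA per cell.

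The promoters of Acot1 and Acot2 are shown because these genes lie next to each other on mouse chromosome 12, on the same strand with 0 annotated genes between them, and yet differed in their levels after E2. The 250 bases upstream of each start are given 5′ to 3′ from RefSeq (GRCm38.p6), with the CCAAT pentamer, or ATTGG where it reads on the opposite strand, in capitals. The Acot1 stretch is chr12:84009252-84009501 and the Acot2 stretch chr12:83987611-83987860, both on the plus strand.
Acot1: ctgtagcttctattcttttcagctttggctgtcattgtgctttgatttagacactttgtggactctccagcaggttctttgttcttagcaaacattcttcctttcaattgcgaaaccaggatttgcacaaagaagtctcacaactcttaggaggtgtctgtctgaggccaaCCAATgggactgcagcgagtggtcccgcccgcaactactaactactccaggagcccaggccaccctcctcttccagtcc
Acot2: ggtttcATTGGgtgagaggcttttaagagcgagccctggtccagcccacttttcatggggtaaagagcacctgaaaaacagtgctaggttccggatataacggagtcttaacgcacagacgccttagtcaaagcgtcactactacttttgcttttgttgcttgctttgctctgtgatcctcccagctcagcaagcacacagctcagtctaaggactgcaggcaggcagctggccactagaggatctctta

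The pentamer begins at position -79 relative to the start in Acot1 and at -244 in Acot2, where it reads on the minus strand. Searched on both strands, CCAAT also occurred upstream of Cpt1a, and it was present in 33.8% of 32851 mouse promoters of the same length. The full estrogen response element (GGTCA and TGACC with any 3 bases between them) was in 0.0639% of promoters, and its letters were not in the window of any member. The single element AGGTCA was in 14% of promoters and upstream of Cpt1a, Acadm and Ucp3, which had it 2 times. The letters of the direct repeat bound by PPARs (AGGTCA and AGGTCA with any 1 base between them, 0.0335% of promoters) and of the glucocorticoid palindrome (AGAACA and TGTTCT with any 3 bases between them, 0.00913%) were in no member's window, nor was TATAAA (12.4%). The estrogen response element and the direct repeat contain AGGTCA or part of it, so these counts overlap with that of the single element. The table held a promoter for each of the members, Ucp2 included, except Angptl4.

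Acot1 had the same pattern in every setting: it was higher with E2 than without it, whichever blocker was present. Its level, on the deposited log2 scale, was 9.81 and 9.62 on the E2 arrays, against 6.88 and 7.15 on the vehicle arrays. It was 8.89 and 8.64 with E2+acolbifene, against 7.40 and 7.19 with acolbifene alone. The arrays with E2 lay above those without it in both pairs of groups, and no array with E2 in the series was as low as any array without it.

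On the arrays without a replicate, Acot1 stood at 9.38 with E2+fulvestrant, against 7.07 with fulvestrant. It stood at 9.24 with E2+raloxifene, against 8.05 with raloxifene, and at 9.53 with E2+tamoxifen, against 8.02 with tamoxifen. All 3 blocker pairs thus had the array with E2 on top, by more than 1 log2 unit, while the pooled SD between the arrays of a replicated group was 0.165.

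**Figure D1:**
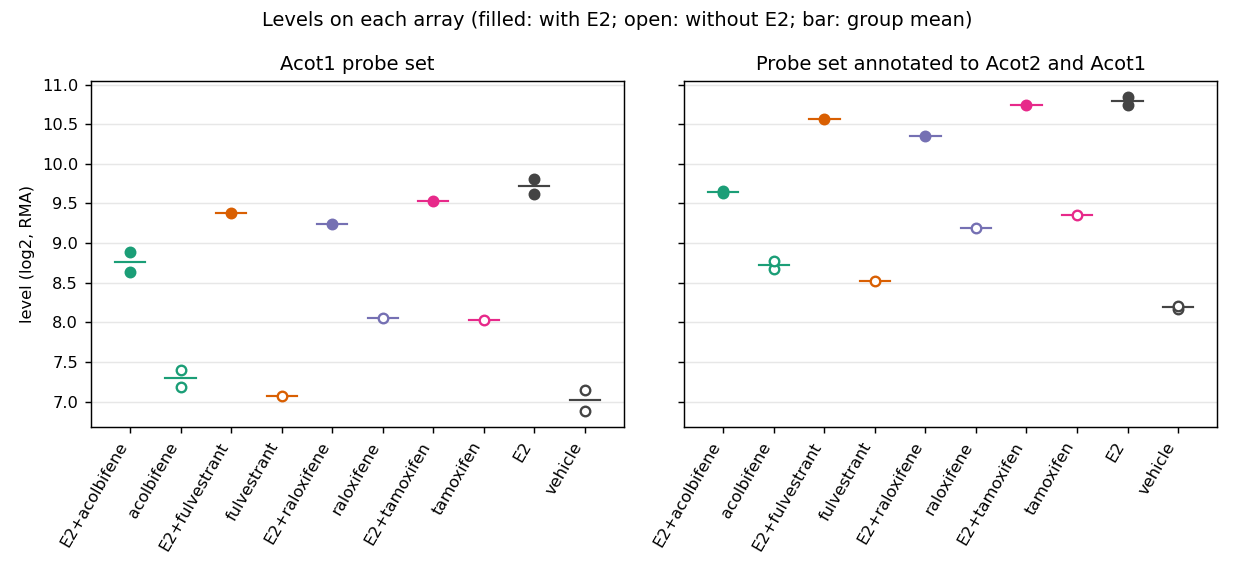
Level (log2) on each of the 14 arrays for the Acot1 probe set (left) and for a probe set annotated to both Acot2 and Acot1 (right). Filled points are arrays with E2, open points arrays without it, and bars group means. In both panels all arrays with E2 lie above all arrays without it.

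In order of group mean, Acot1 was highest with E2 (9.72), followed by E2+tamoxifen, E2+fulvestrant, E2+raloxifene and E2+acolbifene (8.76), then raloxifene, tamoxifen, acolbifene (7.29), fulvestrant and vehicle (7.01). Of the neighbours in this order, E2+fulvestrant and E2+tamoxifen, E2+raloxifene and E2+fulvestrant, tamoxifen and raloxifene, and fulvestrant and vehicle differed by less than the pooled SD. The widest steps were 0.73 between tamoxifen and acolbifene and 0.71 between E2+acolbifene and raloxifene.

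The difference with E2 against without it was 1.47 under acolbifene (2.77-fold), 2.30 under fulvestrant (4.94-fold), 1.19 under raloxifene (2.28-fold), 1.51 under tamoxifen (2.85-fold) and 2.70 with no blocker (6.51-fold). The last of these values is the one that chose Acot1 and is given as a description. Part of the spread among the 5 lay in the arrays without E2: raloxifene alone exceeded fulvestrant alone by 0.98 and tamoxifen alone exceeded it by 0.95, in single arrays that share a raw-file code. Against vehicle, whose arrays carry another code than those 3 blockers' but the same as acolbifene's, raloxifene was higher by 1.04, tamoxifen by 1.01, acolbifene by 0.28 and fulvestrant by 0.06. With E2 present the plain differences from E2 alone were -0.95 for E2+acolbifene, -0.34 for E2+fulvestrant, -0.48 for E2+raloxifene and -0.18 for E2+tamoxifen. These comparisons with E2 alone or vehicle share the arrays that chose Acot1 and have no test.

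**Figure D2:**
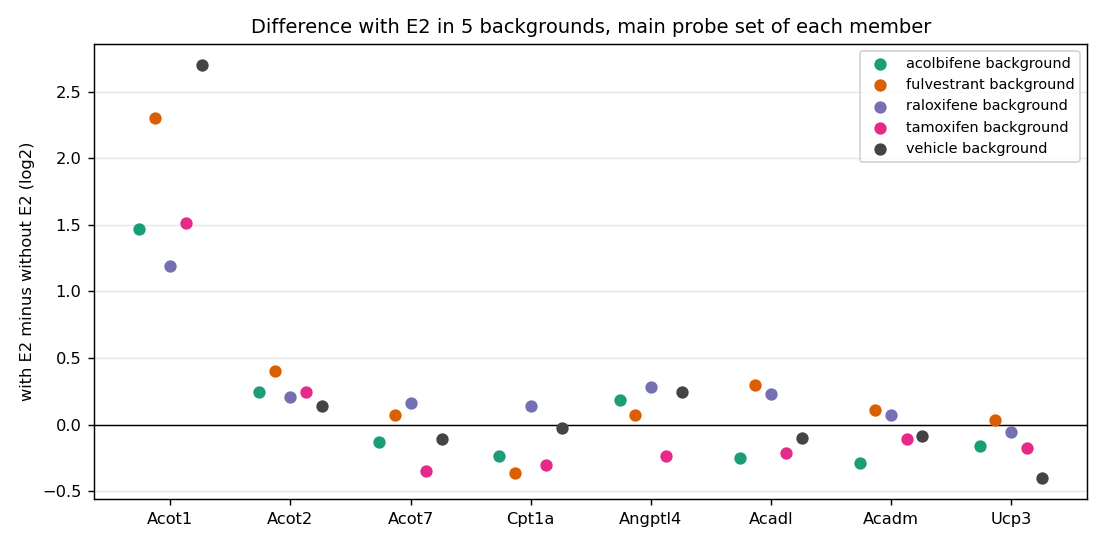
Difference in level (log2) with E2 minus without E2 for the main probe set of each of 8 members, in the acolbifene, fulvestrant, raloxifene, tamoxifen and vehicle backgrounds. Each point is a difference of group means (2 arrays a group for acolbifene and vehicle, 1 for the others). Acot1 lies between 1.19 and 2.70, and the differences of the other members lie between -0.40 and 0.40.

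The arrays of the other blockers, and those with acolbifene, were not used to choose Acot1, although the E2 and vehicle arrays also entered the estimate of spread in the 8-array fit below. In E2+acolbifene against acolbifene, Acot1 rose by 1.47 ± 0.13 (SE, 95% interval 1.19 to 1.75, limma adjusted p = 0.00102 over all 45037 probe sets). In a fit of the 4 arrays of these 2 groups alone, the limma adjusted p was 0.00295. Only 1 of 18193 genes had a larger rise there. Across the pairs with fulvestrant, raloxifene and tamoxifen, fitted with the blocker as a block, Acot1 rose by a mean of 1.67 ± 0.16 (SE, 3 pairs, 95% interval 1.33 to 2.00, limma adjusted p = 0.000837). It ranked second by rise and first by p among the 18193 genes. The 3 pairs are 3 different blockers with 1 array a group, and their differences were 2.30, 1.19 and 1.51. The SE is the limma one, drawn toward the spread of all probe sets, so it is not the spread of these 3 pairs alone.

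The rise under acolbifene minus the mean rise under the other 3 blockers was -0.20 ± 0.24 (SE, 95% interval -0.71 to 0.31, limma adjusted p = 0.724). That interval holds differences of up to 0.71 in size, and the value was 0.12 without the fulvestrant pair. Each of the 2 rises compared arrays of 1 raw-file code. The means of spiked-in hybridisation controls ran from 10.23 to 10.41 on the E2+acolbifene and acolbifene arrays, and from 9.86 to 10.04 on the arrays of the other blockers. The part of these spreads in the rises was not tested.

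Acot1 was 1 of 5 genes whose level was at least 1.5-fold higher with E2 in each of the 4 blocker backgrounds, which is 0.0275% of all genes. The others were Pgr, the progesterone receptor and a textbook estrogen receptor target, F3, the tissue factor that starts coagulation, Aqp5, a water channel of secretory epithelia, and Krt4, a keratin of stratified epithelia. Under acolbifene, Pgr differed by 1.01, F3 by 0.75, Aqp5 by 0.70 and Krt4 by 1.08. Under raloxifene the differences were 0.67 for Pgr, 0.79 for F3, 0.74 for Aqp5 and 1.37 for Krt4. Under fulvestrant Pgr, F3 and Krt4 had larger differences than Acot1, at 2.67, 2.38 and 3.40.

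Skeletal muscle markers went opposite ways in the contrasts in which Acot1 rose. The median of 14 muscle markers, among them Acta1 (skeletal actin), Ckm (muscle creatine kinase) and Mylpf (a fast myosin light chain), was 0.80 higher with E2+acolbifene than with acolbifene, with 6 of 14 called higher. Of all genes, 3.77% were called higher and 7.82% lower in that contrast. In the mean over the other 3 blockers the same median was -0.72 with 4 of 14 called lower, where 0.258% of all genes were called. The summed level of the markers (log2 of their sum) was 14.24 and 14.15 with E2+acolbifene, against 13.49 and 13.45 with acolbifene, and 12.11 to 13.43 on the arrays with E2 and 1 of the other 3 blockers, against 13.17 to 14.24 on those blockers alone. The median of 7 white adipocyte markers, which include Adipoq (adiponectin), differed by -0.24 with 2 of 7 called lower in the first contrast and by -0.04 with 0 called, and 0 at an unadjusted p under 0.05, in the second. Their summed level was 15.69 and 15.60 with E2+acolbifene, against 15.85 and 15.81 with acolbifene. No white adipocyte marker was near the low end of the arrays, the lowest having a mean level of 9.52, and all 6 luminal and 5 basal epithelial markers were above the level called dim (6.65, the 40 percentile of mean level). The median of 8 brown adipocyte markers was 0.20 in the first contrast and 0.23 in the second, with 0 called in either. By pair the brown adipocyte median was 0.73 under fulvestrant, 0.086 under tamoxifen and -0.069 under raloxifene, where 7 of 8 were lower with E2. In E2 against vehicle it was -0.11, with 5 of 8 lower. Acot1 was higher with E2 in each of these. The 5 basal markers had a median of 0.07 with 2 called higher in the first contrast, and 0.03 with 0 called in the second. The 6 luminal markers had medians of -0.10 with 1 called higher, and -0.17 with 0 called. In the second contrast 4 of 6 luminal and 0 of 5 basal markers had an unadjusted p under 0.05 in the limma fit. The counts there were 2 of 8 for brown adipocyte and 14 of 14 for muscle markers, against 4.71% of all genes. The part of these cell types in the Acot1 values was not tested.

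A further probe set, annotated to both Acot2 and Acot1, was examined after its values were seen. It stood at 9.65 and 9.64 with E2+acolbifene, against 8.67 and 8.78 with acolbifene, and at 10.85 and 10.74 with E2, against 8.17 and 8.21 with vehicle. It was 10.57 with E2+fulvestrant against 8.52 with fulvestrant, 10.36 with E2+raloxifene against 9.19 with raloxifene, and 10.75 with E2+tamoxifen against 9.35 with tamoxifen. It followed the Acot1 probe set, with all arrays with E2 above all arrays without it, and rose by 0.92 ± 0.09 under acolbifene (SE, limma adjusted p = 0.00121) and by a mean of 1.54 ± 0.13 under the other 3 blockers (SE, limma adjusted p = 0.000586). The share of each gene in this signal cannot be told apart.

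Acot2, the mitochondrial neighbour of Acot1, differed far less on its own probe set. Its levels were 9.48 and 9.43 with E2+acolbifene, against 9.22 and 9.21 with acolbifene, and 9.67 and 9.49 with E2, against 9.53 and 9.35 with vehicle. It was 9.55 with E2+fulvestrant against 9.15 with fulvestrant, 9.43 with E2+raloxifene against 9.22 with raloxifene, and 9.51 with E2+tamoxifen against 9.27 with tamoxifen. The E2 and vehicle arrays overlapped, whereas under each blocker the arrays with E2 were the higher ones.

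The difference of Acot2 was 0.24 ± 0.10 under acolbifene (SE, limma adjusted p = 0.124) and 0.28 ± 0.09 in the mean over the other 3 blockers (SE, limma adjusted p = 0.571), so neither passed the threshold. Acot1 and Acot2 were the 2 members with a difference above 0 in all 4 blocker backgrounds, against 6.32% of all genes, and 0 members were below 0 in all 4, against 6.57%. A second Acot2 probe set, dim at a mean of 6.22, gave 0.05 (adjusted p = 0.813) and 0.33 (adjusted p = 0.360) in the same contrasts. The 2 genes are similar in sequence, and how far Acot1 transcripts bind to the Acot2 probes was not tested.

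Acot7, a cytosolic thioesterase best known from brain, had no such pattern. It stood at 8.93 and 8.83 with E2+acolbifene, against 9.06 and 8.96 with acolbifene, and at 8.84 and 8.77 with E2, against 8.93 and 8.90 with vehicle. The other 6 arrays lay between 8.57, with E2+tamoxifen, and 8.9999, with E2+fulvestrant. Its difference was -0.13 under acolbifene (95% interval -0.33 to 0.06, limma adjusted p = 0.331) and -0.04 in the mean over the other 3 blockers (95% interval -0.27 to 0.19).

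**Figure D3:**
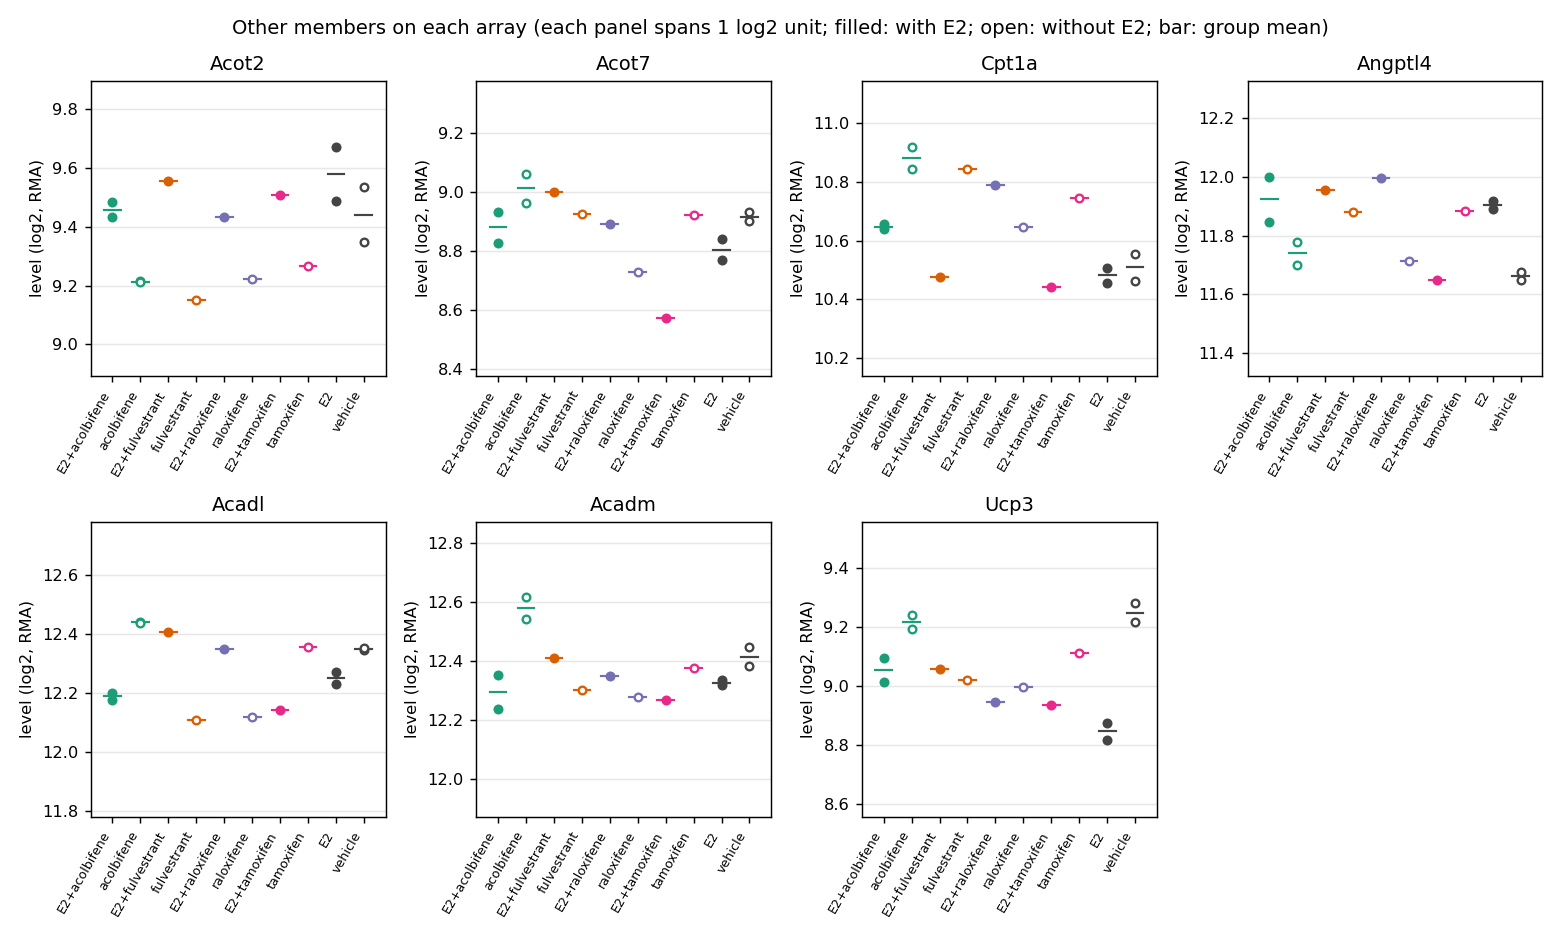
Level (log2) of the other 7 measured members on each of the 14 arrays, main probe set, with each panel spanning 1 log2 unit. Filled points are arrays with E2, open points arrays without it, and bars group means. Cpt1a is highest with acolbifene (10.92 and 10.84) and Ucp3 lowest with E2 (8.87 and 8.82).

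Cpt1a, the carnitine palmitoyltransferase of liver and many other tissues, had its highest group mean with acolbifene. Its levels were 10.64 and 10.66 with E2+acolbifene, 10.92 and 10.84 with acolbifene, 10.46 and 10.51 with E2, and 10.55 and 10.46 with vehicle. The acolbifene arrays exceeded both vehicle arrays, by 0.37 ± 0.09 (SE, limma adjusted p = 0.0791), which did not pass the threshold. The adjusted p was 0.00743 with an intensity trend and 0.0409 without dim probe sets, and another probe set above the dim level gave the opposite direction, -0.27 (limma adjusted p = 0.328).

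With E2 added to acolbifene Cpt1a differed by -0.23 ± 0.09 (SE, limma adjusted p = 0.0995). It was 10.48 with E2+fulvestrant against 10.84 with fulvestrant, and 10.44 with E2+tamoxifen against 10.74 with tamoxifen, but 10.79 with E2+raloxifene against 10.65 with raloxifene. The sign thus differed among the blockers, and the mean over the 3 pairs was -0.18 (95% interval -0.41 to 0.05). Another probe set of Cpt1a went the other way under acolbifene, with a difference of 0.38 (adjusted p = 0.0750), and a dim one gave 0.03.

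Acadl and Acadm, the long-chain and medium-chain acyl-CoA dehydrogenases, varied little across the arrays. Acadl stood at 12.18 and 12.20 with E2+acolbifene, against 12.44 and 12.44 with acolbifene, and at 12.27 and 12.23 with E2, against 12.35 and 12.35 with vehicle. Acadm stood at 12.35 and 12.24 with E2+acolbifene, against 12.62 and 12.54 with acolbifene, and at 12.32 and 12.34 with E2, against 12.38 and 12.45 with vehicle. In both genes the acolbifene arrays were the highest of these 8, and the arrays with E2 lay below those without it.

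On adding E2 to acolbifene, Acadl differed by -0.25 ± 0.08 (SE, limma adjusted p = 0.0720) and Acadm by -0.29 ± 0.09 (SE, limma adjusted p = 0.0609), and neither passed the threshold. Both passed it with an intensity trend (0.00801 for Acadl and 0.00656 for Acadm), without dim probe sets and after median centring. After quantile normalization the values were nearer to 0, at -0.068 for Acadl (adjusted p = 0.669) and -0.12 for Acadm (adjusted p = 0.405), and a dim Acadl probe set gave 0.17. White adipocyte markers were lower in the same contrast, as given above. So were macrophage markers, with a median of -0.45 and 5 of 8 called lower, against 7.82% of all genes. Their summed level was 14.59 and 14.55 with E2+acolbifene, against 14.97 and 14.94 with acolbifene. The median of 4 endothelial markers was -0.26, where that of all genes was -0.04. Of the 4, 0 were called and 4 had an unadjusted p under 0.05 in the limma fit, against 35.8% of all genes. Their summed level was 12.32 and 12.25 with E2+acolbifene, against 12.56 and 12.54 with acolbifene. The part of these cell types in the Acadl and Acadm values was not tested. Under the other blockers Acadl was 12.41 with E2+fulvestrant against 12.11 with fulvestrant, 12.35 with E2+raloxifene against 12.12 with raloxifene, and 12.14 with E2+tamoxifen against 12.35 with tamoxifen. Acadm was 12.41 with E2+fulvestrant against 12.30 with fulvestrant, 12.35 with E2+raloxifene against 12.28 with raloxifene, and 12.27 with E2+tamoxifen against 12.38 with tamoxifen. Both were higher with E2 in the fulvestrant and raloxifene pairs and lower in the tamoxifen pair.

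Angptl4, a secreted inhibitor of lipoprotein lipase and a PPAR target, stood at 11.9998 and 11.85 with E2+acolbifene, against 11.78 and 11.70 with acolbifene. It stood at 11.92 and 11.89 with E2, against 11.67 and 11.65 with vehicle, and these groups did not overlap. The pairs gave 11.95 with E2+fulvestrant against 11.88 with fulvestrant, 11.9957 with E2+raloxifene against 11.71 with raloxifene, and 11.65 with E2+tamoxifen against 11.88 with tamoxifen, so that the tamoxifen pair went the other way.

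The tested differences of Angptl4 were 0.18 ± 0.09 under acolbifene (SE, limma adjusted p = 0.193) and 0.04 ± 0.10 in the mean over the other 3 blockers. Its difference between E2 and vehicle was 0.24 on the main probe set and 0.55 on a dim one, both without a test. Under acolbifene the dim probe set gave 0.22 (adjusted p = 0.120).

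Ucp3, a mitochondrial carrier found mainly in skeletal muscle and brown fat, was lowest with E2. It stood at 9.01 and 9.09 with E2+acolbifene, against 9.24 and 9.19 with acolbifene, and at 8.87 and 8.82 with E2, against 9.22 and 9.28 with vehicle. The remaining arrays were between 8.94, with E2+tamoxifen, and 9.11, with tamoxifen. Its plain difference between E2 and vehicle was -0.40 on the main probe set and -0.54 on another.

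E2+acolbifene minus E2 was 0.21 ± 0.09 for Ucp3 (SE, limma adjusted p = 0.165), and E2+acolbifene minus acolbifene was -0.16 ± 0.09 (SE, limma adjusted p = 0.222). The summed level of the muscle markers was 12.80 and 14.03 on the E2 arrays, against 13.49 and 13.44 on the vehicle arrays. Over the 14 markers the median difference between E2 and vehicle was -0.15, with 5 higher and 9 lower with E2. Among the higher ones, the fast myosin Myh1 stood at 7.81 and 9.40 with E2, against 4.84 and 4.95 with vehicle. Myh2 and Mb (myoglobin) were likewise higher on both E2 arrays. Myh1, Myh2 and Mb stood higher on each of the 12 other arrays than on either vehicle array, blockers alone included (2.46% of all genes). In E2+acolbifene against E2 the 14 muscle markers had a median of 0.82, with the lowest at 0.12. There 2 were called higher, where 3.74% of all genes were called, and 12 had an unadjusted p under 0.05 in the limma fit (25.4% of all genes). In E2+acolbifene against acolbifene, where Ucp3 was lower, the muscle median was 0.80. The part of the muscle markers in the Ucp3 values was not tested. The spiked-in controls stood at 10.01 and 10.04 on the E2 arrays, which have different raw-file codes, against 10.23 to 10.41 on the E2+acolbifene, acolbifene and vehicle arrays, and the part of this gap in each difference from E2 alone was not tested.

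Counted over the members, E2+acolbifene against acolbifene had 1 of 8 called, Acot1, higher, against 11.6% of all genes (3.77% higher and 7.82% lower), and 5 of 8 had an unadjusted p under 0.05, against 35.8% of all genes. The mean over the other 3 blockers had 1 of 8, again Acot1, against 0.258% of all genes (0.165% higher), with 2 of 8 at an unadjusted p under 0.05 (4.71% of all genes). Acolbifene against vehicle had 0 of the 7 tested members, against 0.786% of genes, with 2 at an unadjusted p under 0.05 in the same limma fit (17.5% of all genes). E2+acolbifene against E2 had 0 of 7, against 3.74%, with 1 at an unadjusted p under 0.05 (25.4%). The difference of the E2 effects had 0 of 8, against 0.374%, with 2 at an unadjusted p under 0.05 (17.6%). For E2 against vehicle, the contrast that chose Acot1, 3.95% of all genes were called, and the members have no test there.

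The median difference over the 8 members was -0.15 on adding E2 to acolbifene and 0.03 over the other 3 blockers, where the medians of all genes were -0.04 and -0.0027. The arrays of the compared groups did not overlap for 8 of 8 members in E2+acolbifene against acolbifene (64.3% of all genes), 4 of the 7 members other than Acot1 in E2+acolbifene against E2 (60.7%), 6 of those 7 in acolbifene against vehicle (50.6%) and 5 of those 7 in E2 against vehicle (54.1%). Acot1 was left out of the last 3 counts, which use the arrays that chose it. For 0 members did all 12 other arrays lie above both vehicle arrays (2.46% of genes) or below both (4.3%).

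The wider thioesterase family had 9 of 10 genes measured besides the members. Acot4, Acot3 and Acot5, which follow Acot1 on chromosome 12, differed by 0.01, 0.15 and -0.04 on adding E2 to acolbifene, and none was called; Acot4 and Acot5 are dim. In that contrast 1 gene rose, Acot12, a cytosolic acetyl-CoA hydrolase of liver (0.43, limma adjusted p = 0.0256), and 1 fell, Acot9, a mitochondrial thioesterase (-0.31, limma adjusted p = 0.0462), where 3.77% of all genes were called higher and 7.82% lower. Acot12 stood at 7.60 and 7.71 with E2+acolbifene, against 7.17 and 7.27 with acolbifene. In the mean over the other 3 blockers 0 of 9 were called, and 0 had an unadjusted p under 0.05 in the limma fit. The family's median was -0.04 in the first contrast and 0.01 in the second.

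Of 21 further enzymes of beta-oxidation and its electron transfer, 18 were measured. Ehhadh, the peroxisomal bifunctional enzyme, and Hsd17b4, another peroxisomal enzyme with 2 activities, fell on adding E2 to acolbifene, by 0.43 and 0.33 on the log2 scale (limma adjusted p = 0.0255 and 0.0411). Ehhadh was 9.41 and 9.41 with E2+acolbifene, against 9.91 and 9.76 with acolbifene. These 2 of 18 stand against 7.82% of all genes called lower. The median of the 18 was -0.21, and 10 of 18 had an unadjusted p under 0.05, against 35.8% of all genes. The white adipocyte, macrophage and endothelial markers that were lower in the same contrast are given above, and their part in these enzymes was not tested. The mean over the other 3 blockers called 0 of 18, with 0 at an unadjusted p under 0.05, and a median of 0.04.

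Behind that mean the single pairs differed in sign. With E2+fulvestrant 18 of 18 enzymes were higher than with fulvestrant (median 0.21), with E2+raloxifene 10 of 18 were higher than with raloxifene (median 0.02), and with E2+tamoxifen 3 of 18 were higher than with tamoxifen (median -0.11). With E2+acolbifene 1 of 18 was higher than with acolbifene. Acot1 was higher with E2 in all 4. In the fulvestrant pair, brown adipocyte markers such as Ucp1, the uncoupling protein of brown fat, were also higher with E2, 8 of 8 with a median of 0.73. Their summed level was 14.23 with E2+fulvestrant, against 13.72 with fulvestrant. In the same pair 4 of 4 endothelial markers (median 0.042) and 5 of 5 basal markers (median 0.11) were higher with E2. Lower with E2 were 14 of 14 skeletal muscle markers (median -0.80) and 7 of 8 macrophage markers (median -0.33). The part of these cell types in the 18 enzymes was not tested, and the share of all genes higher in each pair was not counted.

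**Figure D4:**
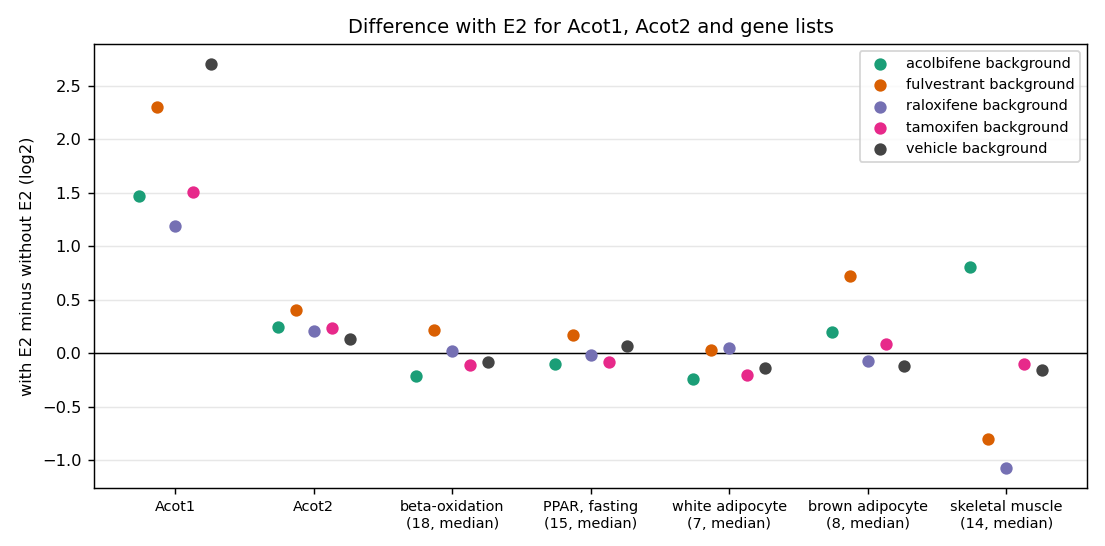
Difference in level (log2) with E2 minus without E2 for Acot1, Acot2 and the medians of 5 gene lists, in the acolbifene, fulvestrant, raloxifene, tamoxifen and vehicle backgrounds; the number of genes in each list stands below its name. Acot1 is above 1 in each background, whereas the skeletal muscle median is 0.80 under acolbifene and -1.07 under raloxifene.

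Of 16 genes of the PPAR axis and the fasting response, 15 were measured. On adding E2 to acolbifene 1 rose, Fgf21, a fasting hormone (0.36, limma adjusted p = 0.0461), where 3.77% of all genes were called higher. There 8 of 15 had an unadjusted p under 0.05 in the limma fit, against 35.8% of all genes. Fgf21 was 7.15 with E2+fulvestrant against 7.37 with fulvestrant, and 7.03 with E2+raloxifene against 7.23 with raloxifene. It was 7.26 with E2+tamoxifen against 7.09 with tamoxifen. In E2+acolbifene against E2 1 rose, Ppargc1a, the coactivator PGC-1α (0.38, limma adjusted p = 0.0441), where 3.74% of all genes were called. In the mean over the other 3 blockers 0 of 15 were called (0.258% of all genes), with 1 at an unadjusted p under 0.05 (4.71%). Pdk4, the kinase that turns off pyruvate dehydrogenase in fasting, stood at 11.97 and 11.41 with E2, against 10.62 and 10.70 with vehicle. It was 11.42 and 11.49 with E2+acolbifene, against 11.27 and 11.16 with acolbifene. Its difference was 0.24 under acolbifene (limma adjusted p = 0.290) and 0.50 in the mean over the other 3 blockers (limma adjusted p = 0.113). Pdk4 and Ppara, the receptor PPARα itself, stood higher on each of the 12 other arrays than on either vehicle array, blockers alone included (2.46% of all genes). Ppargc1a stood lower on each of those 12 arrays than on either vehicle array (4.3% of all genes).

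Over the 10 group means, the genes most like Acot1 among 1629 that varied by at least 1.5-fold above the dim level were Cdk18, a cyclin-dependent kinase (Pearson r = 0.975), Rnf208 (0.970), Lzts1 (0.970), Prom1, the surface protein CD133 (0.968), and Pgr (0.967). These correlations are a description over 10 groups that include the contrast that chose Acot1, and 6 of the 10 means rest on 1 array. Pgr stood at 10.57 with E2 against 7.81 with vehicle, and at 9.41 with raloxifene and 9.57 with tamoxifen against 7.88 with fulvestrant. Cdk18 stood at 8.82 with E2 against 7.39 with vehicle, and at 8.06 with E2+acolbifene against 7.68 with acolbifene. Among the other members the correlation with Acot1 was 0.78 for Acot2, 0.39 for Angptl4, -0.05 for Acadl, -0.40 for Acadm, -0.43 for Acot7, -0.56 for Cpt1a and -0.76 for Ucp3.

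**Figure D5:**
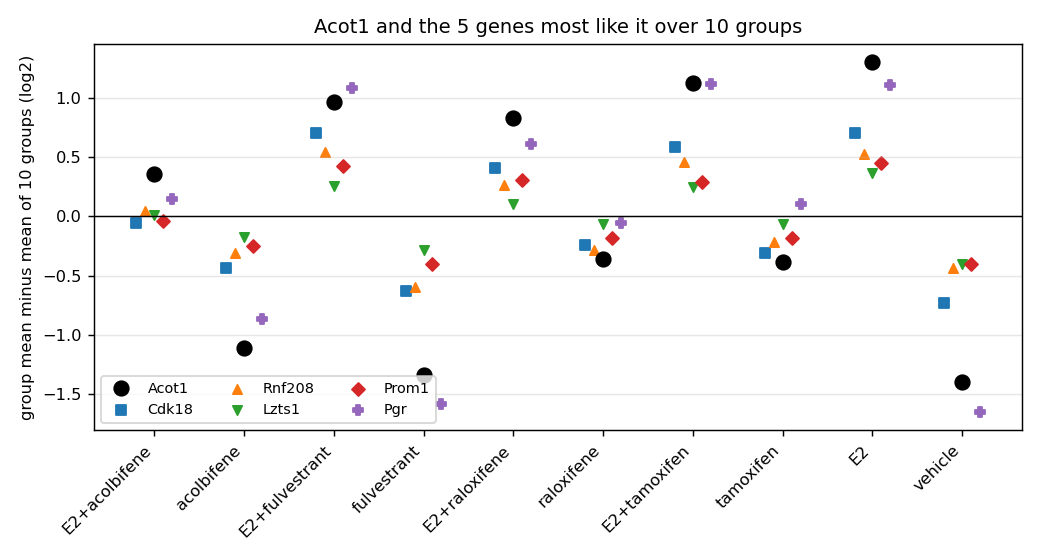
Group mean level (log2) minus the gene's own mean over the 10 groups, for Acot1 (large points) and the 5 genes with the highest Pearson r to it. In each pair of groups the one with E2 is the higher, for all 6 genes, and all 6 are higher with raloxifene and tamoxifen than with fulvestrant.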

How the data were processed

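Expression was read as deposited log2 values of 14 arrays of pooled mammary glands. The authors made them by RMA, per the submitters' processing notes, a method that compresses weak signals and understates folds. The array type named by the submitters, Murine U74Av2, differs from that of the probe annotation supplied for the table, the Mouse Genome 430 2.0; the table's 45101 probe sets were named by that annotation. Of 45037 probe sets left without 64 controls, 34945 carried 1 symbol, 932 several and 9160 none; symbols looked up in RefSeq (GRCm38.p6) changed in 0 cases. The raw-file code is the prefix of each array's raw file name in the labels.

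Differences were fitted with limma 3.58.1 in R 4.3.3 (lmFit, eBayes, Benjamini-Hochberg over all 45037 probe sets, adjusted p under 0.05) on the deposited log2 values. Fits used the 8 arrays of E2+acolbifene, acolbifene, E2 and vehicle; the 6 arrays of fulvestrant, raloxifene and tamoxifen with and without E2, with the blocker as a block; or the 10 arrays of the 4 blockers for the difference of E2 effects. Plain differences are differences of group means. The fit was tested on simulated data. The precision is limited by 1 or 2 arrays a group. All SEs and intervals are those of limma after eBayes, which draws each toward the spread of all probe sets.

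The members and gene lists were chosen with earlier results of these data known, so counts over them are descriptions. Named genes were the members, genes of the lists and the 5 genes with the highest Pearson r to Acot1 over group means, above the 40 percentile of level and varying at least 1.5-fold; the 5 genes with a difference of that size in all 4 blocker backgrounds were picked after their values were seen. Alternatives were an intensity trend, a filter on dim probe sets, median centring, repeated quantile normalization, the raw-file code or replicate number as a term, fewer or more arrays, other probe sets, and leaving out each array; 2 were added after the data were seen, the probe set shared by Acot2 and Acot1 and a fit without the blocker.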

Additional observations from a re-analysis of the deposited data

Results flagged for a closer look

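Acadl drew attention because the acolbifene effect had opposite directions with and without E2. Its level was 12.18 and 12.20 with E2+acolbifene, both below the E2 arrays at 12.27 and 12.23, and 12.44 and 12.44 with acolbifene, both above the vehicle arrays at 12.35 and 12.35. The difference between the 2 acolbifene effects was -0.154 on the log2 scale, and this difference was not tested. The value with E2, -0.063, was 0.023 after quantile normalization and 0.090 on another, dim probe set, where it has the same direction as the effect without E2. The same change of sign was present in Acadm (0.17 without E2 and -0.031 with it) and in Acot1 (0.28 and -0.95). Ucp3 had it the other way round (-0.030 and 0.21), and the other measured members kept the same sign. The 18 beta-oxidation enzymes had medians of 0.057 and -0.11, and all genes 0.026 and -0.0035. These changes of sign were not tested.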

How the results depend on the processing

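On its own probe set Acot1 stayed higher and called in all 15 alternatives of E2+acolbifene against acolbifene (1.34 to 1.59) and all 9 of the mean over the other 3 blockers (1.35 to 1.91), the probe set annotated to 2 genes gave 0.92 and 1.54, both called, and its plain difference between E2 and vehicle was 2.57 to 2.84. The replicate block (the labels' replicate number, which did not pair the samples: deviations correlated at -0.123 to 0.117) left Acot1 called under acolbifene (adjusted p = 0.00129), with 2303 probe sets called there, against 4142, and 1002 in E2+acolbifene against E2, against 1649. The difference of the E2 effects on Acot1 ran from -0.44 to 0.12 when 1 pair or array was left out. It was -0.62 on the probe set annotated to 2 genes, which was not called. Members called on adding E2 to acolbifene numbered 4 with an intensity trend and 4 after median centring (Cpt1a, Acadl and Acadm lower), 3 without dim probe sets, and 2 after quantile normalization (Angptl4 higher, 0.37, adjusted p = 0.0480); acolbifene against vehicle called 1, Cpt1a, with the trend and without dim probe sets.

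Called probe sets moved most by setting. With the trend there were 1437 for acolbifene against vehicle (269 in the fit reported), 3030 where E2+acolbifene was set against E2 and 7219 where it was set against acolbifene, 161 for the other 3 blockers (86) and 262 for the difference of E2 effects (113). Without dim probe sets there were 706 for acolbifene against vehicle and 145 for the other 3 blockers. Median centring gave 2529 for E2+acolbifene against E2 (427 higher and 2102 lower, against 736 and 913) and, for E2+acolbifene against acolbifene, 1224 higher and 4986 lower, against 1587 and 2555. Quantile normalization gave 1034 and 1141 (275 higher and 759 lower, and 661 and 480), 16 for the other 3 blockers and 28 for the difference. The raw-file code as a term left 284 in E2+acolbifene against E2, a fit of 4 arrays 1338 in E2+acolbifene against acolbifene, and a fit of 14 arrays 200 for the other 3 blockers and 173 for the difference. Leaving out arrays or pairs gave 27 to 194, 116 to 1481, 38 to 3367, 49 to 413 and 4 to 145 in the same order of comparisons. The cause was not tested.

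Values not called in the fits reported changed sign. Other probe sets gave 0.048 for Acot2 and -0.27 for Cpt1a in acolbifene against vehicle; -0.024 and -0.089 for Cpt1a, -0.25 for Angptl4 and 0.090 for Acadl in E2+acolbifene against E2; 0.38 and 0.031 for Cpt1a and 0.17 for Acadl in E2+acolbifene against acolbifene; and 0.40 and 0.071 for Cpt1a and 0.12 for Acadl in the difference of E2 effects. Quantile normalization gave -0.0029 for Angptl4 in acolbifene against vehicle, 0.023 for Acadl and 0.055 for Acadm in E2+acolbifene against E2, and 0.10 for Acot2, 0.033 for Acot7, 0.12 for Cpt1a and 0.031 for Ucp3 in the difference; median centring gave -0.046 for Angptl4 in E2+acolbifene against E2. With 1 array or pair left out, Ucp3 ran from -0.063 to 0.0016 in acolbifene against vehicle; Angptl4 from -0.060 to 0.095 and Acadm from -0.088 to 0.025 in E2+acolbifene against E2; Acadm from -0.019 to 0.091, Angptl4 from -0.081 to 0.18 and Acot7 from -0.14 to 0.12 over the other 3 blockers; and Acot2 from -0.077 to 0.019, Acot7 from -0.25 to 0.0046 and Cpt1a from -0.15 to 0.10 in the difference.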
